A study of Mus musculus with 6 samples.

Results

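The 10 genes described here belong to interleukin-6 family cytokine signalling: the ligand genes Il11 and Lif, the receptor genes Il11ra1, Il6ra, Lifr, Osmr and Il6st, the kinase gene Jak2, the transcription factor gene Stat3 and the feedback inhibitor gene Socs3. They were taken by gene symbol, and all 10 were found among the 38720 rows of the deposited table. RNA came from the neck region of the gastric corpus of mice of the B6:129S5 strain, cut by laser capture from unfixed frozen sections. The 3 wild-type libraries are labelled CLDN18+/+ and the 3 knockout libraries CLDN18-/-, with no treatment in either group. The age is 7 weeks in the sample labels and 7 days in the series design text. Whether each library stands for its own animal is not stated, and p-values then measure the spread between samples, which may be technical. Values per library are listed in the order of replicates 1, 2 and 3.

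Cytokines of this family bind a ligand-specific receptor, which then pairs with the shared signalling subunit gp130, the product of Il6st. Kinases of the JAK family bound to the receptor tails phosphorylate STAT3, which enters the nucleus and switches on its targets, among them Socs3, whose product shuts the receptor complex off again. In the stomach the pathway is best known from mice with altered gp130 signalling, in which IL-11 and STAT3 drive growth of the mucosa.

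The libraries held between 37640881 and 52798211 reads on genes, of which the single locus Gm26924 took 38.6% to 45.4%. Cldn18 itself was lower in the knockout but still read, with a log2 difference of -0.71 ± 0.20 (SE, limma adjusted p = 0.0134). The sources used here do not say which part of the gene was deleted, and this checks only the direction of the labels. Most listed genes of parietal and chief cells, the mature cells of the corpus gland, fell. Of these, 7 of 7 parietal and 5 of 6 chief cell markers were lower, where 21.4% of all genes tested were lower. The remaining chief cell marker, Ctrb1, was not called and had a log2 difference of 2.20, on 19 wild-type and 74 knockout reads. Squamous keratinocyte markers, which belong to the forestomach, summed to 498, 7256 and 2680 normalized counts in wild-type replicates 1, 2 and 3 and to 253 to 407 in the knockout, so wild-type libraries 2 and 3 stand apart in them. Mitochondrial transcripts took 3.29% to 4.29% of wild-type reads and 1.25% to 1.56% of knockout reads, and their part in the results was not tested. In RNA from a piece of tissue, fewer cells of a type and less RNA per cell cannot be told apart.

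Both measured ligands of the set and the receptor gene Osmr rose in the knockout, Socs3 rose as well, and the receptor genes Il11ra1, Lifr and Il6st fell. Jak2, Stat3 and Il6ra did not pass the test. Of the 10 members 4 were higher and 3 lower (limma, adjusted p under 0.05 over 17409 genes with a normalized count of at least 10 in at least 3 libraries). Among all genes tested 23.2% were higher and 21.4% lower, 44.7% in all, so 7 calls among 10 genes exceed the background by few genes. edgeR and DESeq2 on the recovered reads called the same numbers of members in each direction, against 46.1% and 43.5% of all genes. The 3 knockout values lay wholly above the 3 wild-type values for the 4 higher members and wholly below them for the 3 lower ones, which holds for 55.2% of all genes tested in either direction. The median log2 difference of the 10 was 0.11, against -0.015 over all genes tested. All 10 passed the filter on low values, Il11 through the 3 knockout libraries and wild-type library 1.

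**Figure D1:**
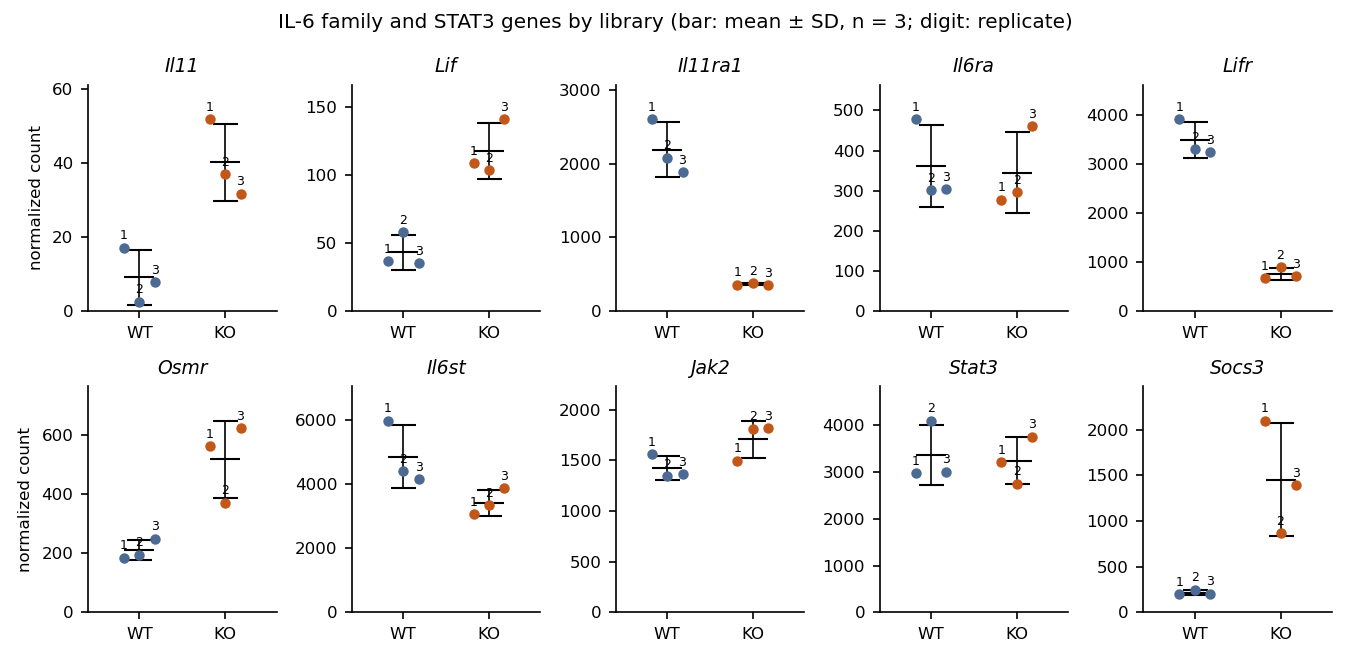
Normalized counts (linear axes from 0) of the 10 genes in each library, wild-type (WT, blue) and knockout (KO, orange), with the replicate number at each dot and bars at the mean ± SD (n = 3). Il11, Lif, Osmr and Socs3 are higher in all 3 knockout libraries than in any wild-type one, Il11ra1, Lifr and Il6st lie lower, and the groups overlap for Il6ra, Jak2 and Stat3.

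The sequence shown is the Socs3 promoter, chosen because Socs3 is a known target of STAT3. STAT dimers bind the palindrome TTCNNNGAA, which reads the same on both strands. The stretch holds the 250 bases before the Socs3 start in RefSeq (GRCm38.p6, the mm10 assembly, chr11:117969367-117969616, minus strand, 5′ to 3′), with the palindrome in capitals.
Socs3: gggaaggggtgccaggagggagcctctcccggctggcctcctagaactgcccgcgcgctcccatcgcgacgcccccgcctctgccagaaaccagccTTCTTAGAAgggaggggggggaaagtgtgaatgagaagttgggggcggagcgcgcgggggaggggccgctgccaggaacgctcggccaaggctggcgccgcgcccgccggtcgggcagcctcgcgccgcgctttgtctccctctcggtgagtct
The palindrome begins 154 bases before the RefSeq start. GENCODE draws the gene further upstream, to 117970047, so the stretch lies inside that gene model. RefSeq promoters were found for all 10 members, 13 promoters in all, and Socs3 was the 1 member with the palindrome in its 250 bases. The palindrome is in 7.02% of the 32851 promoters of the table. A match is a description of the letters and not a site shown to be used.

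Among the ligands, Il11 stood low and rose. Il11 encodes interleukin-11, a cytokine that acts on stromal and epithelial cells (ENSMUSG00000004371.15, mm10 chromosome 7, 4772373 to 4782859, minus strand). Its normalized counts were 17.1, 2.47 and 7.77 in the wild-type libraries, against 51.9, 36.9 and 31.7 in the knockout libraries. The lowest knockout library stood above the highest wild-type one, and wild-type library 2 was far below library 1. The wild-type values rest on 24 reads in all and the knockout values on 138. The means were 9.12 ± 7.43 and 40.2 ± 10.5 (SD, n = 3), a 4.41-fold difference, with a log2 difference of 2.30 ± 0.67 (SE; limma adjusted p = 0.0169). Il11 was no longer called without Cldn18 knockout replicate 1 (limma adjusted p = 0.0765) and with wild-type library 1 alone as the control (log2 difference 1.15, adjusted p = 0.128).

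Lif rose as well. It encodes leukaemia inhibitory factor, which signals through LIFR and gp130 (ENSMUSG00000034394.14, chromosome 11, 4257557 to 4272514, plus strand). Its normalized counts were 36.7, 58.0 and 35.0 in the wild-type libraries, against 109, 103 and 141 in the knockout libraries. Each knockout library held more than each wild-type library, and wild-type library 2 was the highest of its group. The mean went from 43.2 ± 12.8 to 118 ± 20.5 (SD, n = 3), 2.72-fold, with a log2 difference of 1.45 ± 0.34 (SE; limma adjusted p = 0.00538). This call held in each of 20 alternatives.

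None of the other ligand genes tested was called higher by limma. Ctf1, which encodes cardiotrophin-1, stood at 212, 231 and 200 in the wild-type libraries, against 68.9, 82.0 and 48.1 in the knockout libraries (log2 difference -1.71 ± 0.28 SE, limma adjusted p = 0.000738). Clcf1, the cardiotrophin-like cytokine gene, averaged 131 ± 88.1 against 141 ± 45.7 in the knockout libraries (SD, n = 3), with no call.

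The founding cytokine gene of the family was close to unread. Il6 stood at 0 to 3.88 normalized counts over the 6 libraries, 4 wild-type and 3 knockout reads in all. Osm, the oncostatin M gene, stood at 2.96 to 11.3, below the filter. Il27, Ebi3, Il31 and Ctf2 also lay below the filter, and none of these 6 genes was tested. Il27 held 1 wild-type read and 15 knockout reads in all, with each knockout library above the wild-type ones, and Ebi3 held 12 and 49, with overlapping libraries. Cntf was tested and not called.

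The receptor genes moved in opposite directions. Il11ra1 encodes the receptor chain that binds interleukin-11 (ENSMUSG00000073889.10, chromosome 4, 41699989 to 41769474, plus strand). It stood at 2611, 2086 and 1888 normalized counts in the wild-type libraries, against 356, 377 and 353 in the knockout libraries. The knockout libraries lay close together and far below the wild-type ones. The mean went from 2195 ± 374 to 362 ± 13.03 (SD, n = 3), 16.5% of the wild-type level (log2 difference -2.58 ± 0.16 SE, limma adjusted p = 1.25e-06). So the ligand gene Il11 was higher and its receptor gene lower in the same 3 libraries. Il11ra1 has close copies, and reads shared with them are uncertain: Il11ra2 and Gm13305 held at most 4.94 and 7.41 normalized counts in any library.

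Lifr encodes the receptor chain for leukaemia inhibitory factor (ENSMUSG00000054263.12, chromosome 15, 7090614 to 7197489, plus strand). Its normalized counts were 3908, 3292 and 3240 in the wild-type libraries, against 671, 895 and 705 in the knockout libraries. The groups were separated by a wide gap. The mean went from 3480 ± 372 to 757 ± 121 (SD, n = 3), 21.8% of the wild-type level (log2 difference -2.21 ± 0.16 SE, limma adjusted p = 3.01e-06). Among all genes tested 7.43% had a lower log2 difference than Lifr, and 5.90% a lower one than Il11ra1.

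Osmr, the neighbouring receptor gene, went the other way. It encodes the oncostatin M receptor chain (ENSMUSG00000022146.12, chromosome 15, 6813577 to 6874969, minus strand), and the 2 genes lie 216 kb apart on opposite strands. Its normalized counts were 185, 195 and 249 in the wild-type libraries, against 560, 371 and 621 in the knockout libraries. All knockout libraries were above all wild-type ones, with knockout library 2 the nearest to them. The mean rose from 210 ± 34.2 to 517 ± 130 (SD, n = 3), 2.47-fold (log2 difference 1.28 ± 0.23 SE, limma adjusted p = 0.00139). The calls of Il11ra1, Lifr and Osmr each held in 20 of 20 alternatives.

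Both OSMR and LIFR pair with gp130, and the ratio of their mRNAs was taken within each library, where scaling between libraries has no part. Osmr counts were 0.0473, 0.0593 and 0.0767 of Lifr counts in the wild-type libraries, against 0.834, 0.414 and 0.881 in the knockout libraries. On the log2 scale the ratio went from -4.05 ± 0.35 to -0.57 ± 0.61 (SD, n = 3), a difference of 3.48 (exact permutation test, two-sided, p = 0.1, the lowest value this design can give). The ratio of Il6ra to Il11ra1, the binding chains for interleukin-6 and interleukin-11, went from -2.62 ± 0.17 to -0.11 ± 0.43 on the log2 scale (SD, n = 3; exact permutation p = 0.1, the smallest possible). For that ratio the change lies with Il11ra1, since Il6ra was not called.

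Il6ra encodes the interleukin-6 binding chain (ENSMUSG00000027947.11, chromosome 3, 89864059 to 89913196, minus strand). It stood at 479, 301 and 303 normalized counts in the wild-type libraries, against 278, 296 and 460 in the knockout libraries. The groups overlapped throughout, with 1 high library in each. The log2 difference was -0.07 ± 0.26 (SE, limma adjusted p = 0.848), with a 95% interval of -0.64 to 0.50.

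Il6st, the gene of the shared subunit gp130, was lower by a small margin (ENSMUSG00000021756.12, chromosome 13, 112464070 to 112510086, plus strand). It stood at 5989, 4411 and 4170 in the wild-type libraries, against 3062, 3350 and 3870 in the knockout libraries. The groups did not overlap, but the highest knockout library was near the lowest wild-type one. The mean was 4857 ± 988 and 3427 ± 409 (SD, n = 3), and the log2 difference was -0.49 ± 0.17 (SE, limma adjusted p = 0.0358). This call was lost in 6 of 20 alternatives: without wild-type replicate 1 (limma adjusted p = 0.0848), without Cldn18 knockout replicate 1 (0.15) or 2 (0.0957), without a variance trend (0.101), with a replicate block (0.0563) and in the authors' deposited table (0.128). Of 5 further receptor genes 3 were tested, Cntfr, Il27ra and Il12rb1, and none of these was called by limma.

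**Figure D2:**
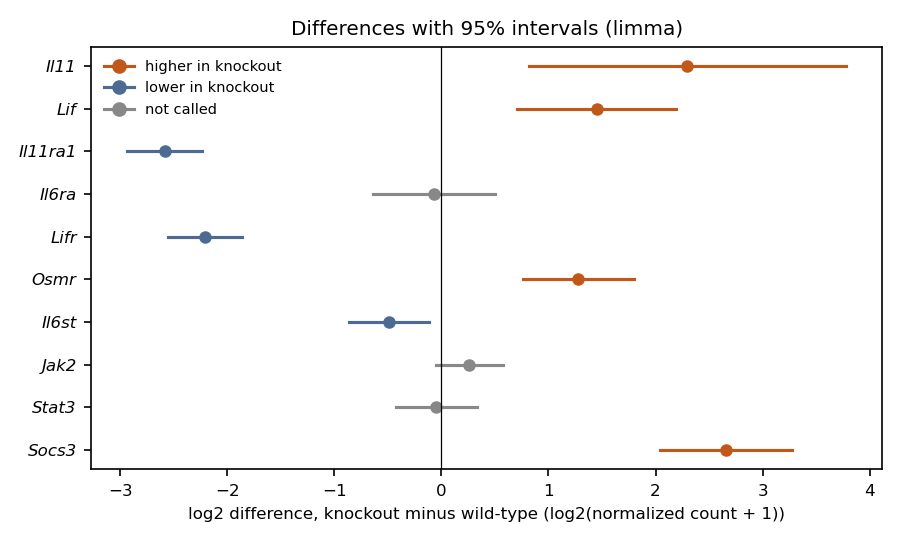
Log2 differences (knockout minus wild-type, on log2(normalized count + 1), horizontal axis) of the 10 genes from limma, with lines for the 95% interval. Il11, Lif, Osmr and Socs3 lie to the right of 0 (orange), Il11ra1, Lifr and Il6st to the left (blue), and the intervals of Il6ra, Jak2 and Stat3 include 0 (grey).

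Marker lists of several cell types moved beside these receptor genes, read against the 23.2% of all genes that were higher and the 21.4% that were lower. All 8 endothelial markers listed were lower, and their sum went from 5175 to 7882 normalized counts in wild-type to 2028 to 2619 in the knockout. Of 9 myeloid markers 6 were higher and none lower, with sums of 1839 to 2457 in wild-type and 3821 to 7013 in the knockout. Of 9 fibroblast markers 4 were higher and none lower, and their sums overlapped, at 23920 to 39774 in wild-type and 28472 to 50371 in the knockout. Neutrophil markers were low, with sums of 46.5 to 56.3 in wild-type and 48.0 to 69.9 in the knockout, and Ly6g at 0 in each library. The 1 of them tested, Csf3r, was higher, on 40 wild-type and 147 knockout reads. Of those not tested, Cxcr2 held 42 wild-type and 10 knockout reads, S100a9 17 and 0, and Mpo 27 and 18. S100a8 held 6 and 7, and Retnlg 7 and 9. T and NK cell markers summed to 77.8 to 124.9 in wild-type and 122.6 to 176.6 in the knockout, with none of the 3 tested called by limma. Smooth muscle markers had 3 of 6 lower and none higher. Mucous neck cell markers, those of the captured region, had 2 higher and 2 lower of 6. Surface pit cell markers had 1 higher and 3 lower of 6, and their sums lay lower in each knockout library. The part of these lists in the receptor and ligand differences was not tested.

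**Figure D3:**
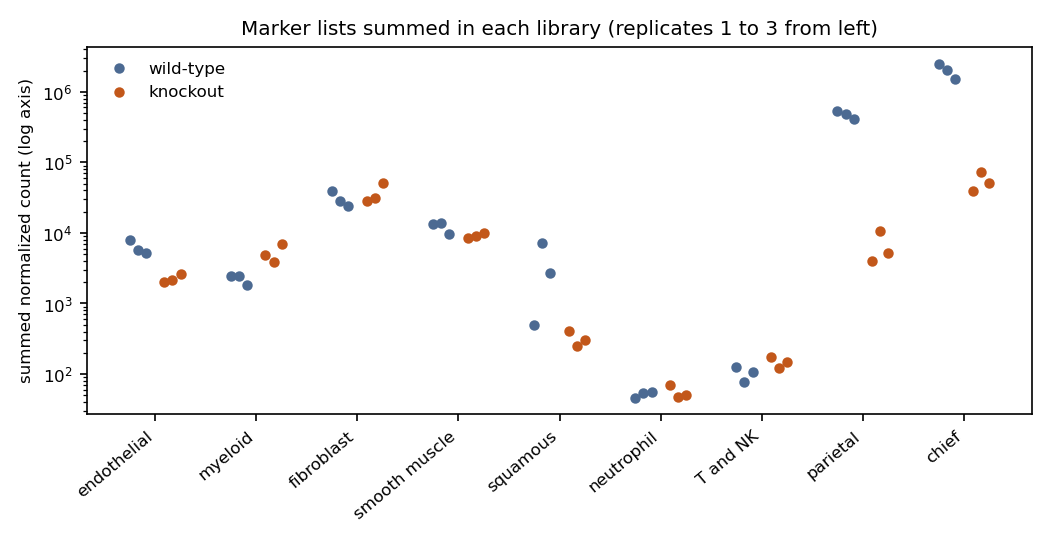
Summed normalized counts of the marker lists shown (log axis) in each library, wild-type in blue and knockout in orange. The mucous neck and surface pit lists are not drawn. Endothelial, parietal and chief cell sums are lower in all 3 knockout libraries, myeloid sums are higher, and the squamous sum is highest in wild-type library 2.

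Below the receptors, the kinase and the transcription factor genes did not pass the test. Jak2 encodes a kinase bound to the receptor tails (ENSMUSG00000024789.13, chromosome 19, 29251828 to 29313080, plus strand). It stood at 1562, 1346.01 and 1367 in the wild-type libraries, against 1498, 1815 and 1818 in the knockout libraries, and the groups overlapped in knockout library 1. The log2 difference came to 0.26 ± 0.14 (SE, limma adjusted p = 0.163), with a 95% interval of -0.053 to 0.57.

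Stat3 stood at 2973, 4102 and 3007 in the wild-type libraries, against 3213, 2755 and 3759 in the knockout libraries (ENSMUSG00000004040.16, chromosome 11, 100885098 to 100939540, minus strand). The groups overlapped, and the highest and the lowest value came from library 2 of each group. The estimate on the log2 scale was -0.05 ± 0.17 (SE, limma adjusted p = 0.847), with a 95% interval of -0.43 to 0.33, which leaves out a change of 1 log2 unit in either direction. Activation of STAT3 is by phosphorylation, which mRNA counts do not measure. Its exons share 72 bases with the opposite-strand gene Stat5a in GENCODE, and the sources used here do not state whether the libraries kept strand.

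Of 9 other JAK and STAT genes 3 were higher, 1 lower and 5 not called, where 44.7% of all genes tested were called. Stat6, the interleukin-4 and interleukin-13 signal transducer, rose from 2074 ± 214 to 3406 ± 320 (SD, n = 3; log2 difference 0.72 ± 0.14 SE, limma adjusted p = 0.0019). Jak3 rose by 0.60 ± 0.19 and Stat5a was lower, at -0.61 ± 0.17 (log2 differences ± SE). The call of Jak3 was lost in 5 of 20 alternatives and that of Stat5a in 4. Jak1 and Tyk2, the other kinases used by gp130, were not called (log2 differences 0.22 and 0.18). Stat2, Stat4 and Stat5b were not called either.

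Socs3, the feedback inhibitor, rose (ENSMUSG00000053113.3, chromosome 11, 117966079 to 117970047, minus strand). Its normalized counts were 197, 249 and 204 in the wild-type libraries, against 2101, 867 and 1395 in the knockout libraries. The wild-type libraries lay close together, and the knockout libraries spread widely above them with library 1 the highest and library 2 the lowest. The mean rose from 217 ± 28.5 to 1454 ± 619 (SD, n = 3), 6.71-fold (log2 difference 2.66 ± 0.28 SE, limma adjusted p = 4.08e-05). Among all genes tested 1.23% had a higher log2 difference. The call held in each of 20 alternatives, with log2 differences of 2.35 to 2.98.

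Within each library Socs3 counts were 0.0663, 0.0608 and 0.0678 of Stat3 counts in the wild-type libraries, against 0.654, 0.315 and 0.371 in the knockout libraries. These counts are not divided by exon length. Per kb of exon, mean Socs3 was 75.0 and Stat3 353 in wild-type, against 503 and 340 in the knockout, where their libraries overlapped. The log2 ratio went from -3.94 ± 0.08 to -1.24 ± 0.55 (SD, n = 3; exact permutation p = 0.1, again the lowest possible). The lowest knockout ratio stood well above the highest wild-type one. The change in this ratio lies with Socs3, since Stat3 was not called, so it restates the difference of Socs3.

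The other regulators showed no excess of calls over all genes tested. Of 18 inhibitor, adaptor and receptor-cleaving protease genes 4 were higher, 2 lower and 12 not called, and their median log2 difference was -0.022. Over all genes tested 44.7% were called, 23.2% higher and 21.4% lower, with a median of -0.015. Socs2, an inhibitor of growth hormone signalling, fell from 2098 ± 398 to 679 ± 31.5 (SD, n = 3; log2 difference -1.61 ± 0.16 SE, limma adjusted p = 2.85e-05). Gab1, an adaptor that links gp130 to other kinases, was lower by -1.22 ± 0.18 (log2 difference ± SE). Adam17 and Adam10, proteases that cut the interleukin-6 receptor from the cell surface, rose by 0.89 ± 0.13 and 0.65 ± 0.16. Socs4 and Pias4 rose by 0.49 ± 0.13 and 0.49 ± 0.14 (log2 difference ± SE). These calls held in 20 of 20 alternatives for Socs2, Gab1 and Adam17, in 19 for Adam10, in 18 for Socs4 and in 15 for Pias4. Socs1, with 24.5 to 56.7 normalized counts, and Cish were not called.

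Most listed STAT3 target genes rose. Of 32 listed 29 were tested, 17 were higher, 1 lower and 11 not called, with a median log2 difference of 1.21, where 23.2% of all genes tested were higher and the median was -0.015. The count and the median include Il1rn, Reg3g and Saa3, which the filter on low values admitted only through their knockout libraries. Many of these genes also answer to other factors, and the list was compiled with earlier results of these data known. Il1rn, which encodes the interleukin-1 receptor antagonist, stood at 13.5, 7.41 and 10.7 in the wild-type libraries, against 733, 462 and 1322 in the knockout libraries (log2 difference 6.09 ± 0.40 SE, limma adjusted p = 2.07e-06). Reg3g, an antibacterial lectin gene, stood at 0, 2.47 and 15.5 in the wild-type libraries, against 108, 51.7 and 50.9 in the knockout libraries (log2 difference 4.11 ± 0.92 SE, limma adjusted p = 0.00434).

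Saa3, an acute phase gene, stood at 15.9, 8.64 and 1.94 in the wild-type libraries, against 172, 28.1 and 179 in the knockout libraries (log2 difference 3.63 ± 0.82 SE). Its call was lost with wild-type library 1 alone as the control (limma adjusted p = 0.0587). Il1rn, Reg3g and Saa3 had wild-type libraries under 10 normalized counts, and passed the filter on low values only through their knockout libraries. Bcl3, a partner of NF-kB subunits, rose from 294 ± 74.7 to 2057 ± 702 (SD, n = 3), 7.00-fold. The other higher targets were Mcl1, Pim1, Fos, Junb, Cebpb, Icam1, Timp1, Ccnd1, Birc5, Muc1, Reg1, Batf and Il33. Among these Reg1 rested on 43 wild-type and 152 knockout reads (limma adjusted p = 0.0402). It was not called in the authors' deposited table (adjusted p = 0.125). The kinase gene Pim3 was the 1 lower target (log2 difference -0.68 ± 0.18 SE, limma adjusted p = 0.0118), a call lost in 2 of 20 alternatives.

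The targets without a call numbered 11. Of these Bcl2l1, Myc, Cebpd, Hif1a, Nnmt, Reg3b, Lrg1 and Steap4 had positive log2 differences, and Hp, Lbp and Fga negative ones. Among the 11, Myc stands out by 1 library, a choice made after its values were seen. It stood at 1004, 4262 and 957 in the wild-type libraries, against 2626, 2635 and 2793 in the knockout libraries. Only wild-type library 2 was above the knockout libraries, and the estimate on the log2 scale was 0.75 ± 0.45 (SE, limma adjusted p = 0.21).

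**Figure D4:**
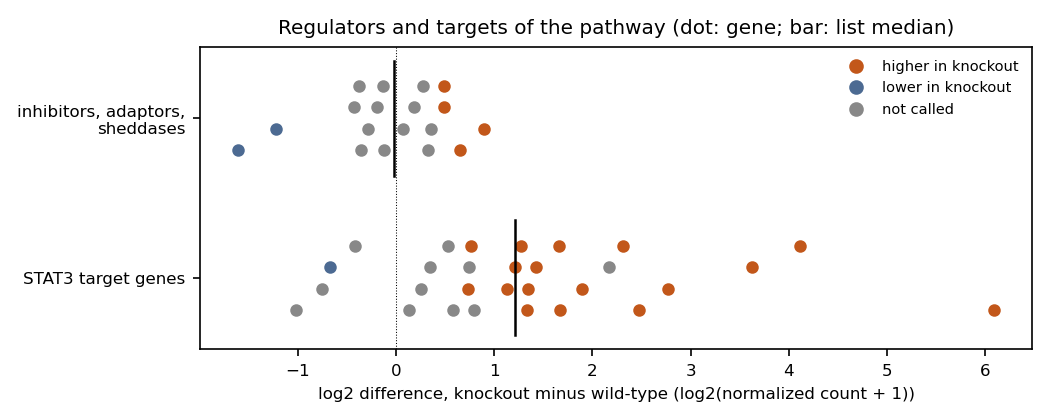
Log2 differences (knockout minus wild-type, horizontal axis) of the 18 inhibitor, adaptor and protease genes and the 29 STAT3 targets tested, by list, with a bar at each list's median. The STAT3 targets spread to the right of 0 with a median of 1.21, while the inhibitor list centres near 0 with a median of -0.022.

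The palindrome TTCNNNGAA was also looked for in the other pathway genes, to set the promoter of Socs3 beside theirs. RefSeq promoters were found for 54 of 74 genes, and 7 of these held it in the 250 bases before the start, 5 of them among the 26 targets with a promoter. Over all genes with a RefSeq promoter the share was 8.13% with it in at least 1 promoter. Of the 7, Icam1 was higher, Gab1 lower, and the rest were not called or not tested. Chosen after their values were seen, the windows of both called genes and of the not called Steap4, which shares its 9 letters with Icam1, are given 5′ to 3′ with the palindrome in capitals.
Icam1: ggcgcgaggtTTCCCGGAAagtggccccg
Steap4: ggttgaactcTTCCCGGAAactttgcttc
Gab1: ccggaggagtTTCAGAGAAagt
The Icam1 window is chr9:21015888-21015916 on the plus strand, that of Steap4 chr5:7960346-7960374 on the plus strand and that of Gab1 chr8:80880480-80880501 on the minus strand (GRCm38.p6). GENCODE draws Gab1 further upstream, to 80880519, so its window lies inside that gene model. Icam1, an adhesion molecule gene, stood at 115, 53.1 and 48.6 in the wild-type libraries, against 378, 289 and 481 in the knockout libraries (log2 difference 2.47 ± 0.35 SE), while Steap4, a metalloreductase gene, stood at 64.9, 42.0 and 81.6 against 117, 57.6 and 100.0 (log2 difference 0.53 ± 0.39 SE, limma adjusted p = 0.296).

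Among the higher genes knockout library 2 was most often the lowest of its group. It was the lowest knockout library for 3 of the 4 higher members, the exception being Il11, and for 14 of the 17 higher STAT3 targets. Over all 4047 higher genes it was the lowest for 56.2%, so much of this order is shared with higher genes at large.

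Levels were compared between genes per kilobase of exon, taking the union of exons in GENCODE vM21. In wild-type Il11ra1 led with 491 normalized counts per kb, followed by Il6st (438), Stat3 (353), Lifr (323) and Jak2 (283), and each of these overlapped its neighbour in the order. Socs3 (75.0), Il6ra (41.8) and Osmr (17.3) followed without overlap, then Lif (9.94) and Il11 (4.38), which overlapped each other. In the knockout Socs3 led with 503 per kb, and Stat3 (340), Jak2 (340) and Il6st (309) followed it, each overlapping its neighbour. Il11ra1 (80.9) and Lifr (70.3) now formed the next pair, and Osmr (42.7), Il6ra (39.9), Lif (27.1) and Il11 (19.3) came last, each overlapping the next. In both groups the 2 ligand genes were the lowest.

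**Figure D5:**
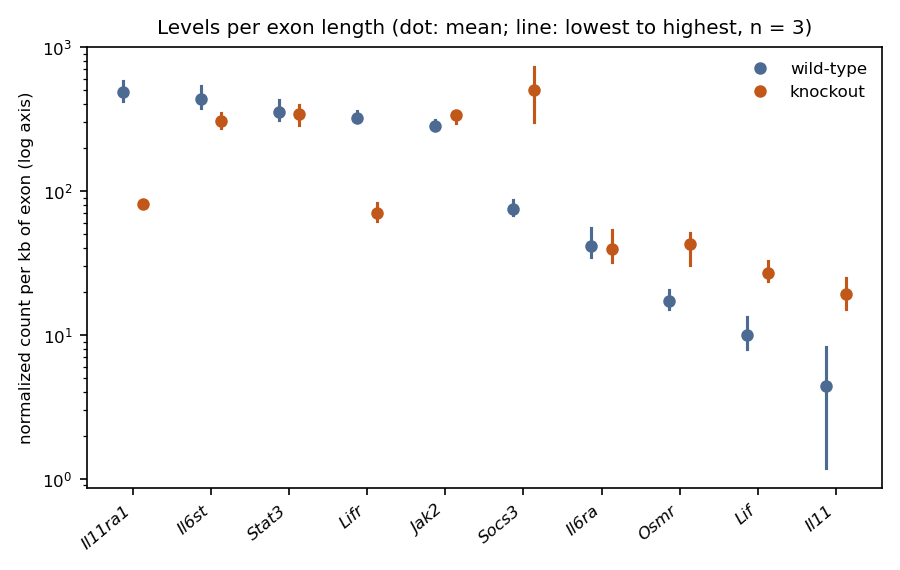
Normalized counts per kb of exon (log axis) of the 10 genes in wild-type order, with dots at the mean and lines from the lowest to the highest library (n = 3). Socs3 moves from the sixth place in wild-type (75.0) to the first in the knockout (503), and Il11ra1 and Lifr drop below Stat3, Jak2 and Il6st.

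Genes with the most similar profile over the 6 libraries were sought by the root mean square difference between log2 profiles, each centred on its own mean. For Osmr the nearest was Sod3, an extracellular superoxide dismutase gene, at 0.084, followed by Ms4a7 and Dio2. For Lif the nearest were L1cam, Elovl5 and Shmt2, at 0.098 to 0.10. For Il11 it was Alox15, a lipoxygenase gene, at 0.19, with 14.7, 2.47 and 8.74 normalized counts in the wild-type libraries, against 41.6, 34.0 and 37.5 in the knockout libraries, followed by Tnfsf13 and Hist1h3f. For Socs3 the nearest were Gm16505, 1700020L24Rik and Pdzrn3, at 0.21 to 0.24. These are descriptions of likeness over 6 libraries.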

How the data were processed

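The members and the gene lists were chosen with earlier results of these data known. Groups and replicate numbers come from the sample labels. STAR, featureCounts, DESeq and the mm10 build are named in the submitters' processing notes. Their versions, the annotation and the strandedness were not given in the sources used here. The main deposited table holds a signal, normalized counts per gene and library. All values were whole multiples of 1 number per library (100% of values within 0.05 reads), which gave back whole reads for count tests. The authors' deposited comparison gives a ratio of group means with p-values, and served only as an alternative. Left out were 27 of 38720 rows, where a date replaces the symbol.

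The main test was limma 3.58.1 (R 4.3.3; lmFit and eBayes with a mean trend, two-sided) on log2(normalized count + 1). The added 1 makes differences of low genes smaller, but they can still exceed the ratio of group means. For Il11 the log2 difference was 2.30, against 2.14 for the log2 of that ratio. A gene entered it with 10 or more normalized counts in 3 or more of 6 libraries, and Benjamini-Hochberg adjustment ran over all 17409. The procedure was tested on simulated data. Named genes are the 10 members and up to 4 called genes per list and direction with the largest difference, and some results under this rule are not reported here. Alternatives were other pseudocounts, filters, scalings and variance models, a replicate block, libraries left out, and edgeR 4.0.16 (8028 calls, 7574 shared with limma) and DESeq2 1.42.0 on the recovered reads. The promoters are RefSeq's (GRCm38.p6), and coordinates of genes are from GENCODE vM21.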

Additional observations from a re-analysis of the deposited data

How the results depend on the processing

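Of 7 called members, Lif, Lifr, Osmr, Socs3 and Il11ra1 kept their call in each of 20 alternatives, while Il11 lost it in 2 of 19 and Il6st in 6 of 20. With 1 library left out, the higher members numbered 3 to 4 and the lower ones 2 to 3. The 24 higher and 6 lower genes of the other pathway lists became 20 and 10 after upper quartile scaling, which shifted the median of all genes from -0.015 to -0.15. Genes lower overall numbered 3733, against 2003 by the authors' deposited table (the cause was not tested). Directions turned for 2 members with no call. Stat3 ranged from -0.16 to 0.11 on the log2 scale with 1 library left out (0.11 without wild-type replicate 2, 0.065 without knockout replicate 2). It stood at 0.11 with wild-type library 1 alone. Il6ra ranged from -0.30 to 0.15 with 1 library left out (0.15 without wild-type replicate 1, 0.066 and 0.022 without knockout replicate 1 or 2). It stood at -0.51 with wild-type library 1 alone. The cause of these turns was not tested. Wild-type Il11 rests on 24 reads, which limits its precision, and Il6 and Osm are too low to test.

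No pairing by replicate number was seen: deviations of libraries sharing a number correlated at -0.0034, 0.021 and -0.17. With the replicate block 4 members were higher and 2 lower, and of the other pathway genes 23 and 6. Paired by number, each of the 3 ratios had an exact permutation p of 0.25, the smallest that 3 pairs allow; the differences themselves are the same by construction.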
